A study of Mus musculus with 14 samples.

Results

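To see how PU.1 and C/EBPβ divided the genome of macrophages (MAC), their 2 binding lists were set against each other. The MAC PU.1 list held 82866 peaks and the MAC C/EBPβ list 55471, together 138337 of the 158488 peaks in the 14 lists of the series. A peak was called shared when it overlapped a peak of the other factor by at least 1 bp, and PU.1 only or C/EBPβ only otherwise. Binding had been measured by ChIP-seq, in which DNA crosslinked to a protein is recovered with an antibody and sequenced, and each deposited peak was 400 bp wide around its summit, so that the peak centre stands for the summit. The cells came from a mouse embryonic stem cell line with a GFP reporter in the Brachyury gene, and nothing further about age or genotype separates the groups used here. MAC were obtained by further differentiation of CD41+ cells and sorted by the surface marker CD11b, and hematopoietic progenitors (HP), used below for comparison, were the sorted CD41+ cells. Mesoderm (MES, Bry:GFP+/Flk1-) and hemangioblasts (HB, Bry:GFP+/Flk1+) were earlier stages of the same cultures. Each factor and stage had 1 list, so there were no replicates, and every test below compares lists of peaks and not conditions.

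The authors called both MAC lists against the input DNA of MAC, with a less stringent threshold for C/EBPβ than for PU.1. The lengths of the lists therefore do not measure amounts of binding, and no read depth or height accompanied the peaks. Intervals given here are 95% intervals that cover counting error only. In cells of a bulk culture, binding in fewer cells and weaker binding per cell cannot be told apart.

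PU.1, encoded by Spi1, is an ETS-family factor that is required for the macrophage lineage and recognises purine-rich sites around a GGAA core. C/EBPβ is a basic leucine zipper (bZIP) protein that binds palindromic sites as a dimer, is abundant in myeloid cells and acts at genes of inflammation and metabolism. In macrophages, PU.1 is known as a factor that opens enhancers at which C/EBP, AP-1 and other proteins also bind.

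The sequences below were chosen because they hold the consensus words of the 2 factors, which most sites do not. In 400 bp peaks, neither word stood in 71.8% of PU.1 only, 76.0% of shared PU.1, 76.5% of shared C/EBPβ and 78.8% of C/EBPβ only peaks. Both words stood in 1.07% of shared PU.1 and 1.03% of shared C/EBPβ peaks. Over the whole span of 2 shared peaks, which is mostly wider, 73.5% of pairs held neither word and 1.48% both. The PU.1 consensus searched was GAGGAAGT, and the C/EBP consensus was any of TTGCACAA, TTGCATAA, TTGCGCAA and TTGCGTAA, on both strands. Each line gives the forward strand of GRCm38 from 5′ to 3′ as in the RefSeq assembly, with these words or their reverse complements in capitals. The first set holds shared regions at macrophage genes in which both consensus sequences stood within 150 bp of the midpoint of the 2 centres.

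Il1b, chr2:129373338-129373568: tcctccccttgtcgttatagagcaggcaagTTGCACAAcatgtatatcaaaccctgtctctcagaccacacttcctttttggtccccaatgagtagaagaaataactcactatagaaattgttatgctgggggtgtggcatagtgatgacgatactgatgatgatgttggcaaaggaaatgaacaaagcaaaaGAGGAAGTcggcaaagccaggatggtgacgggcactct
Stat3, chr11:100916441-100916681: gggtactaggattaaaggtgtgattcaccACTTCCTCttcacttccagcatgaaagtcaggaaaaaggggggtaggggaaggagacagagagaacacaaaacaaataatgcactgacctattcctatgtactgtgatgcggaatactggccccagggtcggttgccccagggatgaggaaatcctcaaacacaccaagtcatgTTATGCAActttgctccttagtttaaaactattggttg
Zeb2, chr2:45279473-45279624: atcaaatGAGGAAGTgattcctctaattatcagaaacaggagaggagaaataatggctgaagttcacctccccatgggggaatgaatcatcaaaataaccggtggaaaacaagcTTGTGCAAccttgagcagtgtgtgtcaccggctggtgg

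The Il1b region lay 2396 bp upstream of the gene for interleukin 1β, between genes. There the PU.1 centre fell on position 197 of the printed run, inside the PU.1 consensus at positions 194 to 201, and the C/EBPβ centre on position 34, inside the C/EBP consensus at positions 31 to 38. The 2 centres were thus 163 bp apart, each on its own consensus. The Stat3 region lay in an intron 23058 bp downstream of the TSS, with centres 219 bp apart. In the Zeb2 region, between genes and 162149 bp upstream of the TSS, the centres were 65 bp apart and the PU.1 centre, at position 118, fell on the C/EBP word at positions 115 to 122, while the PU.1 word stood at positions 8 to 15. The C/EBPβ centres of the Stat3 and Zeb2 regions lay beyond the end of the printed runs. The second set shows PU.1 only peaks at the promoters of C1qc, a chain of complement C1q, and Fcer1g, the signalling chain of Fc receptors.

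C1qc, chr4:136893040-136893159: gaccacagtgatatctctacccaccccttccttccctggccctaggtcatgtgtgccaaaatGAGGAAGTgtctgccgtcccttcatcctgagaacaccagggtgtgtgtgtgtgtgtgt
Fcer1g, chr1:171234650-171234769: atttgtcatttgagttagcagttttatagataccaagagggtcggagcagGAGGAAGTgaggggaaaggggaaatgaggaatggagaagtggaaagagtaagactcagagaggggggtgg

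The centre is position 60 of each run, and the word stood at positions 63 to 70 for C1qc and 51 to 58 for Fcer1g. The C1qc centre lay 186 bp and the Fcer1g centre 361 bp upstream of the TSS. Both factors had peaks within 2 kb of the Fcer1g TSS, none of them shared. The third set shows C/EBPβ only peaks at the promoters of Cfb, complement factor B, and Adgre1, which encodes the macrophage antigen F4/80.

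Cfb, chr17:34862875-34862994: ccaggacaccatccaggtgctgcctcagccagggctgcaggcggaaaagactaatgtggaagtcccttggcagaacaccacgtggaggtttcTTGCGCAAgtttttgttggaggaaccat
Adgre1, chr17:57359434-57359553: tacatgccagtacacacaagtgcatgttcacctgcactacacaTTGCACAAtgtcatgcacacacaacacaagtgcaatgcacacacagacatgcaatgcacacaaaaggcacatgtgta

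The Cfb peak was centred 421 bp upstream and the Adgre1 peak 808 bp downstream of the TSS. The word stood at positions 93 to 100 for Cfb and 44 to 51 for Adgre1, with the centre at position 60, and no PU.1 consensus stood in either run. Within 2 kb of the Adgre1 TSS there was also a shared site.

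A large minority of listed C/EBPβ sites lay on a listed PU.1 site. Of the C/EBPβ peaks, 23553 (42.5%, interval 42.0% to 42.9%) overlapped a PU.1 peak, and 31918 did not. Of the PU.1 peaks, 23629 (28.5%, 28.2% to 28.8%) overlapped a C/EBPβ peak, and 59237 did not. Merging gave 114660 regions, of which 51.7% were PU.1 only, 20.5% shared and 27.8% C/EBPβ only. Nearly all shared sites were simple pairs, since 36 PU.1 peaks touched more than 1 C/EBPβ peak and 112 C/EBPβ peaks more than 1 PU.1 peak. Across the 19 autosomes and the X chromosome, the shared part of the C/EBPβ list ranged from 32.7% on X to 46.1% on chromosome 17, with a median of 42.9%. The shared part of the PU.1 list was also lowest on X, at 24.1%, and highest on chromosome 13, at 30.4%.

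The centres of shared peaks lay close together. The median distance from a shared PU.1 centre to the nearest C/EBPβ centre was 65 bp, with quartiles at 29 and 137 bp. Of these PU.1 peaks, 94 had a C/EBPβ centre at the same base, 41.0% had one within 50 bp and 83.6% within 200 bp. The counts dropped steeply and then levelled off. There were 9520 PU.1 peaks with a C/EBPβ centre less than 50 bp away, 5920 in the next 50 bp, 820 in the 50 bp below the limit of overlap at 400 bp and 719 in the 50 bp from it on. Of the C/EBPβ only peaks, 16.9% had a PU.1 centre within 1 kb and 70.2% within 10 kb.

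**Figure D1:**
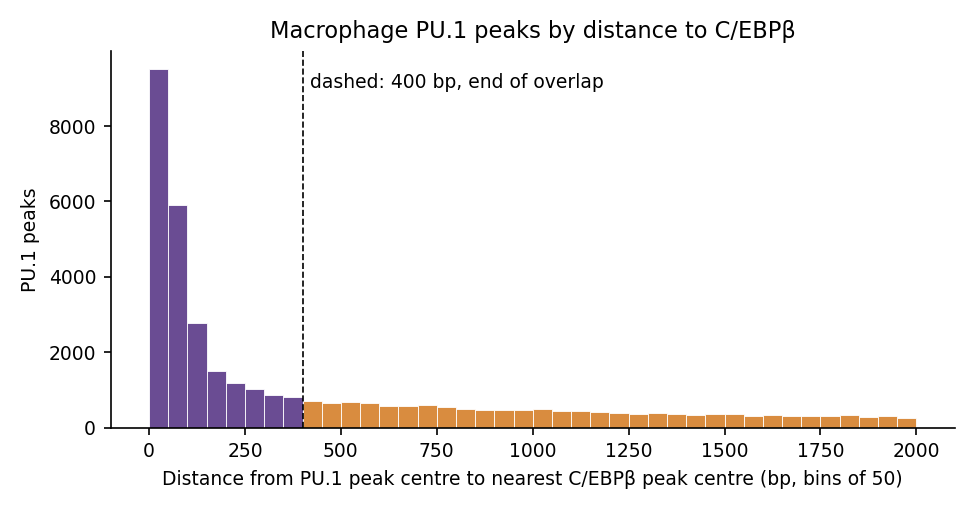
Number of MAC PU.1 peaks (vertical axis) by the distance in bp from their centre to the nearest MAC C/EBPβ centre (horizontal axis, bins of 50 bp, up to 2 kb). The first bin holds 9520 peaks and the bin that begins at 400 bp, where overlap ends (dashed line), holds 719.

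Shared peaks held each factor's own consensus less often than peaks of that factor alone. The PU.1 consensus was present in 27.1% of PU.1 only peaks (26.8% to 27.5%) and in 17.7% of shared PU.1 peaks (17.2% to 18.2%). The difference, shared minus PU.1 only, was -9.44 percentage points (-10.0 to -8.83; Fisher's exact test, two-sided, adjusted p 9.5e-187), and it had the same sign on 20 of 20 chromosomes. The C/EBP consensus was present in 19% of C/EBPβ only peaks (18.6% to 19.4%) and in 9.26% of shared C/EBPβ peaks (8.90% to 9.64%), again lower on 20 of 20 chromosomes (adjusted p 8e-232, same test). In peaks of 1 list, the own word rose with distance to the nearest centre of the other factor. PU.1 only peaks held it in 19.5% at 400 bp to 1 kb and 29.0% at 2 kb or more. Shared PU.1 peaks held it in 16.8% to 19.7% by distance, most often from 300 to 400 bp. For C/EBPβ only peaks the 2 shares were 14.8% and 20.3%. Shared C/EBPβ peaks went from 7.86% below 25 bp to 13.1% from 300 to 400 bp. These trends were not tested. In windows of the same width shifted by 2 kb to either side, the PU.1 consensus stood in 2.54% to 2.82% and the C/EBP consensus in 2.30% to 2.44%. C/EBPβ only peaks held the PU.1 consensus at the level of their flanks, 2.72% against 2.54%. PU.1 only peaks held the C/EBP consensus in 1.53%, below the 2.34% of their flanks.

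The position of each word followed the factor. In PU.1 only peaks with a PU.1 consensus the word lay a median of 10 bp from the centre, and in shared PU.1 peaks also 10 bp. The C/EBP consensus lay a median of 17 bp from the centre of C/EBPβ only peaks and 14 bp from that of shared C/EBPβ peaks. The other factor's word lay further away, with a median of 65.5 bp from the PU.1 centre to the C/EBP consensus in shared peaks. The 23523 pairs of peaks that were each other's nearest were searched over the span of both peaks. Of them 16.9% held the PU.1 consensus alone, 8.15% the C/EBP consensus alone, 1.48% both and 73.5% neither. In the 348 pairs with both, the PU.1 consensus lay nearer to the PU.1 centre in 296 and the C/EBP consensus nearer to the C/EBPβ centre in 293, as in the Il1b region above. The 2 words were a median of 106.5 bp apart (quartiles 42 and 214 bp) and overlapped in 4 pairs. The C/EBP word lay on the 3′ side of GAGGAAGT in 183 of these 348 pairs, or 52.6% (47.2% to 57.9%). The median distance between centres was 66 bp for the PU.1 consensus alone, 73 bp for the C/EBP consensus alone, 63 bp for neither and 93 bp for both.

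Words bound by other bZIP proteins were also more frequent where C/EBPβ bound. The AP-1 consensus, TGACTCA or TGAGTCA, binds Fos and Jun dimers. It stood in 9.46% of PU.1 only peaks, 16.2% of shared PU.1 peaks, 17.2% of shared C/EBPβ peaks and 18.4% of C/EBPβ only peaks, against 7.05% to 7.19% in the flanks. Shared PU.1 peaks exceeded PU.1 only peaks by 6.74 points (6.22 to 7.27; Fisher's exact test, adjusted p 3e-157), on 20 of 20 chromosomes. The small difference between shared and C/EBPβ only peaks was -1.20 points (-1.84 to -0.554; adjusted p 0.000365, same test). It did not pass the threshold when an overlap of at least 200 bp was required (-0.407 points, p 0.234) or when promoters were left out (-0.341 points, p 0.366). It did pass in the central 200 bp of each peak (-1.32 points, p 5.7e-06, same test). Among the first 20000 peaks of each list, an alternative added after seeing the data, it was -2.47 points (p 0.000307, same test). The AP-1 word was not centred as the C/EBP word was, with medians of 53.5 bp from the centre of C/EBPβ only peaks and 56.5 bp in shared C/EBPβ peaks. The composite word TGATGCAA, which joins parts of an ATF and a C/EBP site, stood in 6.46% of C/EBPβ only peaks and 3.76% of shared C/EBPβ peaks (adjusted p 8.2e-46, Fisher's exact test), against 1.06% in the flanks of either, and lay a median of 21 and 18 bp from their centres. At least 1 of the C/EBP, AP-1, C/EBP-ATF and CRE (TGACGTCA) words was found in 40.9% of C/EBPβ only peaks, 29.3% of shared C/EBPβ peaks and 12% of PU.1 only peaks.

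On the PU.1 side, the ETS-IRF word, GGAA and GAAA separated by any 2 bases, was found in 7.82% of PU.1 only, 8.46% of shared PU.1 and 7.78% of shared C/EBPβ peaks. In C/EBPβ only peaks it was found in 3.99%, near the 4.18% of their flanks. Shared C/EBPβ peaks exceeded C/EBPβ only peaks by 3.79 points (3.39 to 4.19; adjusted p 2.7e-80, Fisher's exact test). PU.1 and IRF4 or IRF8 are known to bind such sites together. The RUNX word TGTGGTT stood in 11.5% of shared PU.1 peaks and 9.78% of PU.1 only peaks (adjusted p 4.8e-13, Fisher's exact test), against 10.5% and 9.93% in their flanks, and in 10.7% of C/EBPβ only peaks. The GATA words AGATAAC and AGATAAG stood in 7.55% of shared PU.1 peaks and 8.45% of PU.1 only peaks (adjusted p 2.7e-05, same test), against 8.86% to 9.11% in the flanks of the classes. A word found or not found in a window does not by itself show whether a protein was bound.

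**Figure D2:**
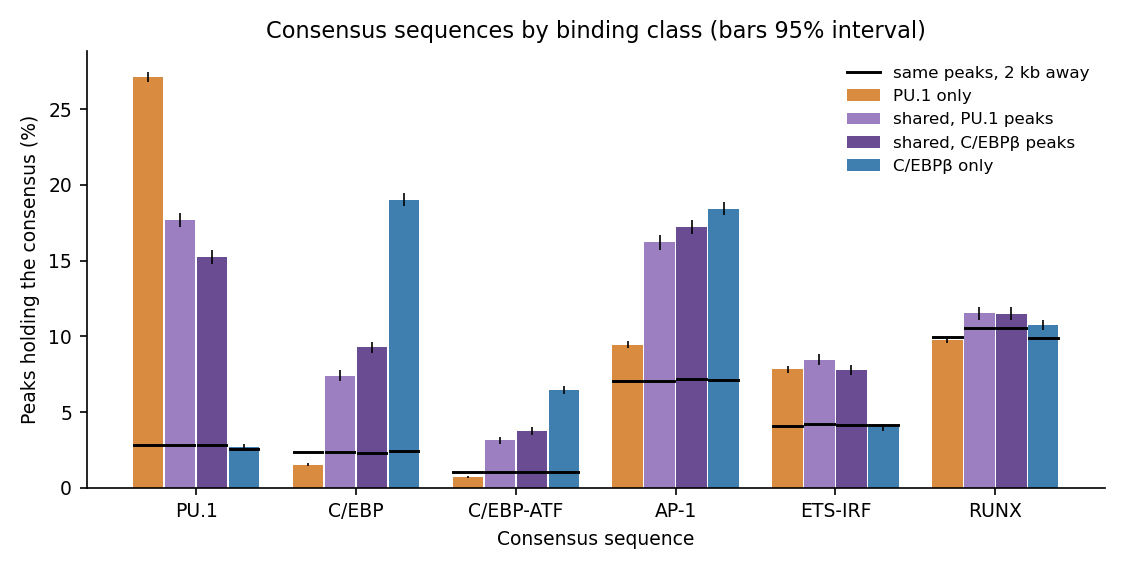
Percentage of peaks that hold each consensus (vertical axis) for 4 groups of MAC peaks; error bars are 95% intervals and black lines the share in windows 2 kb away. The PU.1 word falls from 27.1% in PU.1 only to 2.72% in C/EBPβ only peaks, the C/EBP word rises from 1.53% to 19%, and the AP-1 word from 9.46% to 18.4%.

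Both lists were deposited in an order that was not by position, and what set this order is not stated in the sources used here. Sharing and consensus content varied along it, as seen when each list was divided into 10 bins of equal size. In the first bin of the C/EBPβ list 64.4% of peaks (63.1% to 65.7%) were shared and in the last bin 29.2% (28.0% to 30.4%). In the PU.1 list the shared part went from 46.6% in the first bin to 21.7% in the seventh and 22.3% in the last. The PU.1 consensus stood in 38.7% of the first and 18.3% of the last bin of its list, and the C/EBP consensus in 24.3% and 12.9%. The lower consensus content of shared peaks held within 10 of 10 bins of each list. In the first bin of the PU.1 list it was 34.5% in shared and 42.4% in PU.1 only peaks. In the first bin of the C/EBPβ list it was 20.7% in shared and 30.9% in C/EBPβ only peaks. The median distance between centres of shared peaks was 51 bp in the first and 96.5 bp in the last bin of the PU.1 list. Along the C/EBPβ list it changed less, from 57 bp in the first to 71 bp in the last bin.

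**Figure D3:**
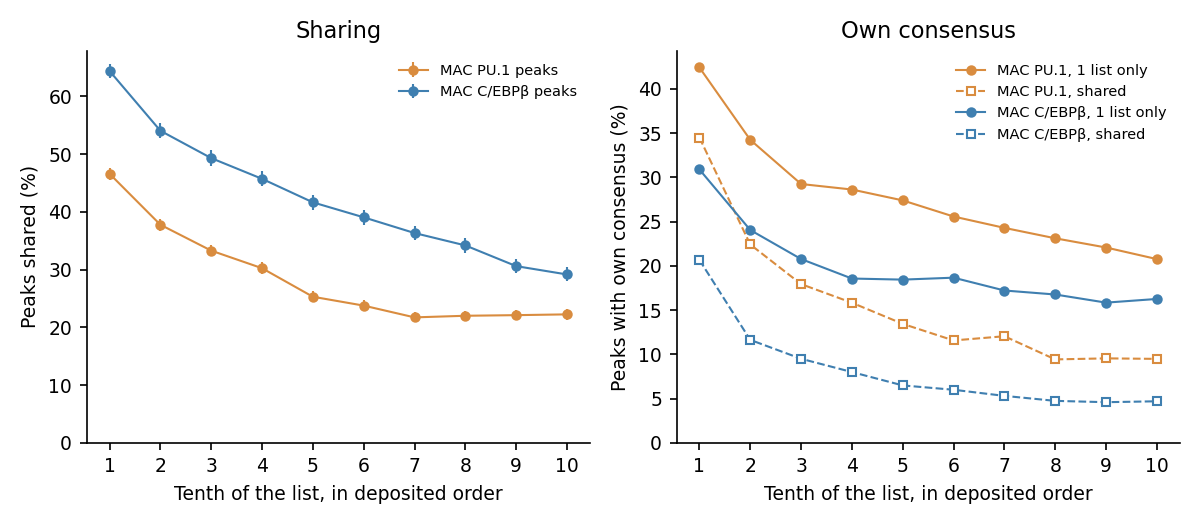
Percentage of MAC PU.1 and MAC C/EBPβ peaks that were shared (left, with 95% intervals) and that held their own consensus (right, shared peaks dashed, peaks of 1 list only solid) by bin of each list in deposited order (10 bins of equal size). Sharing of C/EBPβ peaks goes from 64.4% to 29.2%, and the dashed line lies below the solid line of the same list in each bin.

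Shared sites lay at promoters somewhat more often than the other classes. A peak centre was within 2 kb of a coding transcription start site (TSS) in 19.8% of shared PU.1 peaks (19.3% to 20.3%), 17.3% of PU.1 only peaks (17.0% to 17.7%) and 13.9% of C/EBPβ only peaks (13.6% to 14.3%). The first 2 differed by 2.43 points (1.84 to 3.02; adjusted p 7.5e-16, Fisher's exact test). This order was not stable: with an overlap of at least 200 bp, shared peaks were 0.699 points lower than PU.1 only peaks (difference -0.699, p 0.0260, same test). Among the first 20000 peaks of each list, an alternative added after seeing the data, shared peaks were also lower, by a difference of -0.886 points (p 0.191, Fisher's exact test). Shared C/EBPβ peaks exceeded C/EBPβ only peaks by 5.70 points (5.07 to 6.33; adjusted p 8.4e-71, Fisher's exact test). With an overlap of at least 200 bp this difference was 1.72 points (p 1.8e-07), and among the first 20000 peaks it was -0.736 points (p 0.279, same test). PU.1 only peaks exceeded C/EBPβ only peaks by 3.42 points in the whole lists (adjusted p 4.8e-41) and by 0.251 points among the first 20000 (p 0.566, same test). C/EBPβ only peaks had the lowest GC content, with a median of 46.0% against 48.5% in PU.1 only and shared PU.1 peaks. They also lay furthest from a coding TSS, with a median of 24433.5 bp against 19163 bp for PU.1 only and 17963 bp for shared PU.1 peaks. In all classes most peaks lay in introns (39.7% to 42.3%) or between genes (36.7% to 40.1%).

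A part of the macrophage sites was already listed in HP, more of the shared peaks of a factor than of its peaks alone. Of the shared PU.1 peaks 16.5% and of the PU.1 only peaks 11.3% overlapped an HP PU.1 peak. For C/EBPβ only peaks the share was 0.201%, but this class was defined by the lack of a MAC PU.1 peak, so a low value is no separate result. Shared peaks exceeded PU.1 only peaks by 5.14 points (4.61 to 5.68; adjusted p 9.1e-85, Fisher's exact test), on 20 of 20 chromosomes. Among the first 20000 peaks of each list this difference was 1.46 points (p 0.0874, same test). Overlap with HP PU.1 changed steeply along the deposited order, from 59.2% in the first bin of the MAC PU.1 list to 2.35% in the last. The HP C/EBPβ list overlapped 5.80% of shared C/EBPβ peaks and 3.5% of C/EBPβ only peaks. In PU.1 only peaks, likewise defined by the lack of a MAC C/EBPβ peak, the share was 0.111%. Shared exceeded C/EBPβ only by 2.30 points (1.94 to 2.66; adjusted p 2.6e-37), on 20 of 20 chromosomes. The C/EBPβ lists of MES and HB showed the opposite order, on few peaks. They overlapped 504 and 310 C/EBPβ only peaks, and 277 and 182 shared C/EBPβ peaks. For both lists, and for HB GATA2 and MAC RUNX1 below, the authors gave no qPCR enrichment before sequencing. The MES list overlapped 1.58% of C/EBPβ only and 1.18% of shared C/EBPβ peaks, a difference of -0.403 points (-0.596 to -0.207; adjusted p 9.5e-05, Fisher's exact test), lower on 14 of 20 chromosomes. The HB list overlapped 0.971% and 0.773% (difference -0.199 points; adjusted p 0.0172, same test). Among the first 20000 peaks of each list, the difference was -1.86 points for MES and -1.13 points for HB (p 8.2e-11 and 1.9e-06, Fisher's exact test). The list of hemogenic endothelium (HE, Tie2+/cKit+/CD41-), the stage between HB and HP, overlapped 0.116% and 0.106%, and this difference of -0.00978 points (-0.0654 to 0.0499) did not pass (adjusted p 0.823, same test). The HP lists of GFI1B, RUNX1 and GATA2, regulators of blood stem and progenitor cells, overlapped shared PU.1 peaks in 1.46%, 1.25% and 0.512%. They overlapped PU.1 only peaks in 0.768%, 0.559% and 0.235%, and all 3 differences passed (adjusted p 1.3e-18, 7.6e-23 and 1.4e-09, Fisher's exact test). The same direction was found for other lists, such as MES ELK4 (0.423% and 0.233%, adjusted p 1.4e-05) and MAC RUNX1 (0.182% and 0.0287%, adjusted p 1e-11, same test). The HB GATA2 list overlapped only 3 shared PU.1 and 9 PU.1 only peaks (0.0127% and 0.0152%), and this difference did not pass.

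By the nearest coding TSS, most genes carried both factors. Of 21000 coding genes, 12991 (61.9%) had peaks of both, 2791 PU.1 peaks alone, 868 C/EBPβ peaks alone and 4350 neither. A PU.1 peak was found at 75.2% of genes and a C/EBPβ peak at 66.0%. A shared peak was found at 46.5%, a PU.1 only peak at 70.1% and a C/EBPβ only peak at 53.7%. At 3286 genes both factors bound but no PU.1 peak was shared, and 6749 genes had peaks of all 3 classes. Binding was concentrated at a part of the genes. The 2100 genes with the most PU.1 peaks held 43.3% of them, the 2100 with the most C/EBPβ peaks held 46.8% of those, and for shared peaks the part was 51.4%. Across genes, which are not independent replicates, the numbers of PU.1 and C/EBPβ peaks were correlated with Spearman's rho of 0.801, and per 100 kb with 0.645. Shared sites enter both counts, and PU.1 only and C/EBPβ only peaks were correlated with a rho of 0.627. A gene with a large territory, the stretch for which its TSS is the nearest, collects more peaks of either factor (rho 0.461 for PU.1 and 0.471 for C/EBPβ).

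Of the genes with the most sites, 5 were among the 10 highest in all 3 classes, ties included. Trib1, a pseudokinase that directs C/EBPα to degradation, had the most shared peaks, 30, of 64 PU.1 and 55 C/EBPβ peaks. Runx1 had the most PU.1 only peaks, 55, with 27 shared and 29 C/EBPβ only. Lpp, a gene for a focal adhesion protein with a territory of 813 kb, had the most C/EBPβ only peaks, 41, with 29 shared and 50 PU.1 only. These 5 were Lpp, Runx1, Myc, Adgrl2 and Irs2, whose 25 C/EBPβ only peaks tied with those of Eea1 at the end of that list. The insulin receptor substrate gene Irs2 had 27 shared peaks, Irf2bp2 25, Cited2 21, the mRNA-decay factor gene Zfp36l2 21 and Tomm20, a gene of mitochondrial protein import, 21. Gse1 had 45 PU.1 only, 10 shared and 6 C/EBPβ only peaks, and Zmiz1 had 53, 13 and 21. Over all genes there were 59237 PU.1 only, 23629 shared and 31918 C/EBPβ only peaks. Klf6 leaned towards C/EBPβ, with 32 C/EBPβ only, 18 shared and 22 PU.1 only peaks, and so did Zfp608, with 32, 18 and 27.

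Each factor was bound at its own gene and at that of the other. Spi1 (chr2:91082374-91115759, forward strand) had 13 PU.1 and 6 C/EBPβ peaks within a territory of 31.1 kb, 5 of the PU.1 peaks being shared. One shared pair with centres 15 bp apart held the C/EBP consensus. Its PU.1 centre lay 2 bp and its C/EBPβ centre 9 bp upstream of the nearest annotated Spi1 TSS of each. These annotated starts lie downstream of the 5′ end of the span given here, and which start the cells used was not examined. Another shared pair lay in an intron with the PU.1 consensus and centres 7 bp apart. Cebpb (chr2:167688915-167690432, forward strand) had 34 PU.1 peaks and 20 C/EBPβ peaks, 15 of the PU.1 peaks shared. A shared pair lay 649 bp (PU.1) and 1035 bp (C/EBPβ) upstream of its TSS. A PU.1 only peak with the PU.1 consensus was centred 369 bp downstream and a C/EBPβ only peak 1224 bp downstream, both over the body of this short gene. The other 14 shared PU.1 peaks of Cebpb lay downstream, from 11.6 kb out to 114 kb. Cebpa, the related gene, had a C/EBPβ only peak 171 bp upstream of its TSS and no PU.1 peak within 2 kb. Itgam (chr7:128062640-128118491, forward strand) encodes CD11b, the marker used for the sort. It had 10 PU.1 and 6 C/EBPβ peaks, with a PU.1 only peak 14 bp downstream of the TSS and 5 shared sites. In one of these, in an intron 3.14 kb downstream, the 2 centres were 2 bp apart and both peaks held the PU.1 consensus. Binding at a gene is not a measure of its expression.

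Of the 20 genes listed for macrophage surface receptors, 20 had a shared site, against 46.5% of all coding genes, and 19 when peaks within 50 kb alone were counted. The exception was Timd4, whose single shared site lay 253 kb from its TSS. Their median was 7 PU.1, 5.5 C/EBPβ and 2 shared peaks, against 2, 1 and 0 over all 21000 genes. Csf1r, the receptor for macrophage colony stimulating factor, had 18 PU.1 peaks, of which 4 were shared and 14 PU.1 only. A shared pair lay 257 bp (PU.1) and 194 bp (C/EBPβ) downstream of its TSS, and another 3.17 and 3.34 kb downstream in an intron. Sirpa, an inhibitory receptor, had 9 shared peaks of 18, and the scavenger receptor genes Marco and Msr1 had 8 of 17 and 8 of 13. Timd4, a receptor for phosphatidylserine on resident macrophages, was bound mainly by PU.1, with 12 PU.1 peaks and 1 C/EBPβ peak, and Lyve1 had 8 and 3. The scavenger receptor gene Cd36 had more C/EBPβ peaks than PU.1 peaks, 10 and 7, and Mrc1, the mannose receptor, had 9 and 7. At Cd68 there was a single shared pair, centred 17 bp downstream (PU.1) and 136 bp upstream (C/EBPβ) of the TSS.

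**Figure D4:**
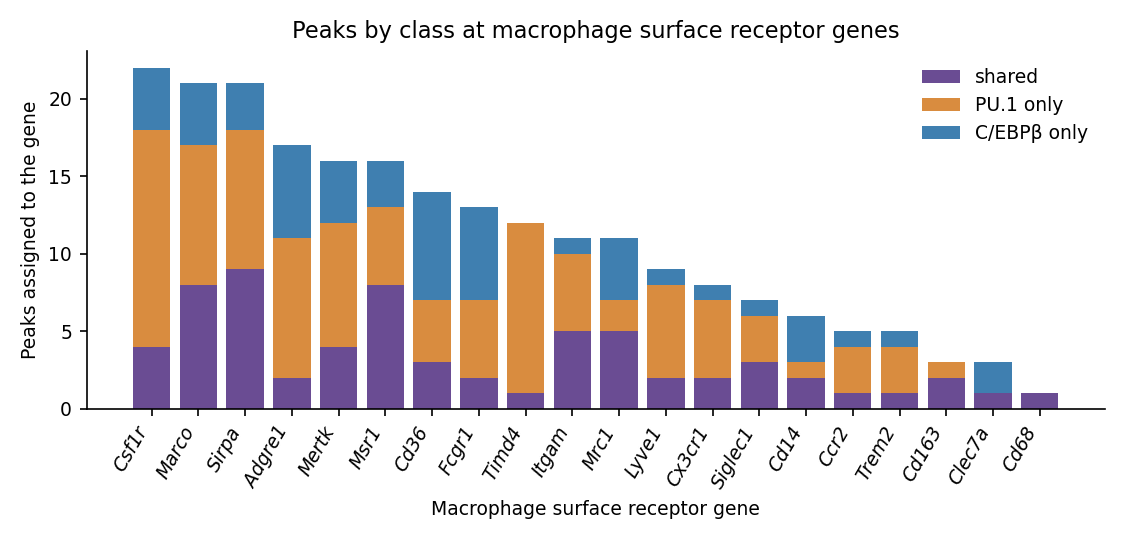
Number of peaks (vertical axis) assigned to each of 20 macrophage surface receptor genes, stacked by class; shared sites are counted once, by their PU.1 peak. The 20 genes have at least 1 shared site each (for Timd4 253 kb from its TSS), Sirpa has 9, and Timd4 has 11 PU.1 only peaks and no C/EBPβ only peak.

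At genes of Toll-like receptors and their adaptors, which sense microbial products, 46.7% of PU.1 peaks and 50% of C/EBPβ peaks were shared, against 28.5% and 42.5% over all coding genes. Of these 21 genes 17 had a shared peak (81.0%, against 46.5%). The endotoxin receptor gene Tlr4 had 13 C/EBPβ peaks, 10 of them C/EBPβ only, and 8 PU.1 peaks, and its promoter held a shared pair 84 bp downstream (PU.1) and 52 bp upstream (C/EBPβ). Tlr5 had 9 shared peaks and Tlr2 had 5, whereas Tirap had no PU.1 peak and Irak4 no C/EBPβ peak. Among inflammatory cytokines 16 of 17 genes had a shared peak (94.1%), with a median of 8 PU.1, 5 C/EBPβ and 3 shared peaks. Csf1 had 10 shared peaks, Il1a 7 and Il1b 6, and Tgfb1 had none. At the Tnf promoter, a shared pair was centred 77 bp (PU.1) and 179 bp (C/EBPβ) upstream of the TSS. Of 16 chemokine genes 13 had a shared peak (81.2%), and 44.4% of their PU.1 peaks and 62.1% of their C/EBPβ peaks were shared. Ccl2 had 6 shared peaks and Ccl6 had 5, and Ccl7 and Ccl22 each had 1 PU.1 peak and no C/EBPβ peak.

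All 7 genes of the phagocyte oxidase, which makes superoxide, had peaks of all 3 classes, against 32.1% of coding genes, with a median of 10 PU.1, 6 C/EBPβ and 3 shared peaks. Its membrane subunit gene Cybb had 3 shared, 5 PU.1 only and 3 C/EBPβ only peaks. Of 14 genes of Fc receptors and ITAM signalling, 13 had a shared peak (92.9%, against 46.5% of coding genes), Btk being the exception with 3 PU.1 only and 2 C/EBPβ only peaks. Of 22 lysosome genes 20 had a shared peak (90.9%), and 15 had one within 2 kb of the TSS (68.2%, against 20.3% of coding genes). The protease gene Lgmn had 12 shared peaks, and 6 of the 8 PU.1 peaks of the proton pump gene Tcirg1 were shared. Of 13 complement genes 6 had a shared peak (46.2%, against 46.5% of coding genes), with a median of 0, as over all genes. C1qa, C1qb and C1qc each had 1 or 2 PU.1 only peaks and no shared peak, and C3 had 2 PU.1 only and 3 C/EBPβ only peaks. The 6 genes with shared peaks included the integrin genes Itgb2, with 6, and Itgax, with 4.

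All 21 genes for myeloid transcription factors had peaks of all 3 classes, against 32.1% of coding genes, with a median of 13 PU.1, 7 C/EBPβ and 4 shared peaks and a median territory of 144 kb, against 49 kb over all genes. Maf had 19 shared of 59 PU.1 peaks and Klf4 had 17 of 40. Irf8, a partner of PU.1, had 34 PU.1 and 16 C/EBPβ peaks, 12 of the PU.1 peaks shared. The other C/EBP genes varied. Cebpd had 11 PU.1 only, 1 shared and 3 C/EBPβ only peaks, and Cebpe had 10, 1 and 2. Cebpa had 7 PU.1 only, 3 shared and 4 C/EBPβ only peaks, and Cebpg had 6, 6 and 5. Tfec had more C/EBPβ than PU.1 peaks, 17 and 11. Of the AP-1 and related bZIP genes 13 of 15 had a shared peak (86.7%, against 46.5% of coding genes), with 10 at Jun, 7 at Fos and 6 at Atf3. In the amino acid stress response, in which ATF4 and C/EBP proteins act on composite sites, 15 of 18 genes had a shared peak (83.3%), and 12 had one within 2 kb of the TSS (66.7%, against 20.3% of coding genes). The cystine transporter gene Slc7a11 had 21 C/EBPβ and 18 PU.1 peaks, Psat1 had 17 of each, and Trib3 had 5 and 2. Among lipid genes, Abca1, the cholesterol exporter, had 30 C/EBPβ and 28 PU.1 peaks, Pparg had 19 and 15, Rxra 9 and 26, and Srebf1 5 and 11 with none shared. No peak of either list was assigned to Apoe. Of 16 glycolysis genes 14 had a shared peak (87.5%, against 46.5%), with 12 at Hk2 and 11 at Pfkfb3.

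Lists of genes that mark other cell types lay on both sides of the 46.5% of coding genes with a shared peak. A shared peak was found at 4 of 15 T and B cell genes, 4 of 12 erythroid genes, 4 of 12 megakaryocyte genes and 3 of 10 neuronal genes, each with a median of 0 shared peaks, as over all genes. Shared peaks were found at 4 of 8 mast cell genes, 6 of 12 endothelial genes, 6 of 10 pluripotency genes and 8 of 10 fibroblast genes. With peaks within 50 kb alone, the count for pluripotency genes was 3. PU.1 only peaks were found at 12 of the 15 T and B cell genes (80%, against 70.1% of coding genes), among them Blk with 7 and Pax5 with 5. At the megakaryocyte genes Pf4 and Ppbp there were 2 PU.1 peaks each and no C/EBPβ peak, and at Ank1, an erythroid gene, 12 PU.1 only and 2 C/EBPβ only peaks. Of 15 granule and neutrophil genes, 11 had a shared peak (73.3%, against 46.5%) and 6 a C/EBPβ only peak (40%, against 53.7%). Of the endothelial genes, Kdr and Cdh5 had 8 and 5 shared peaks within territories of 283 and 693 kb, and Sox17, Eng, Tek, Tie1, Robo4 and Esam had none. The fibroblast genes had a median territory of 254 kb, and counting peaks within 50 kb alone left shared peaks at 4 of them. Among housekeeping lists, shared peaks were found at 45 of 84 ribosomal protein genes (53.6%) and 20 of 39 proteasome genes (51.3%). Olfactory receptor genes, of which 1103 were annotated, had a shared peak in 3.26% and keratin genes in 12.2%. Since the lists were drawn up with results of these data known, these counts describe the lists and are not a test.

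**Figure D5:**
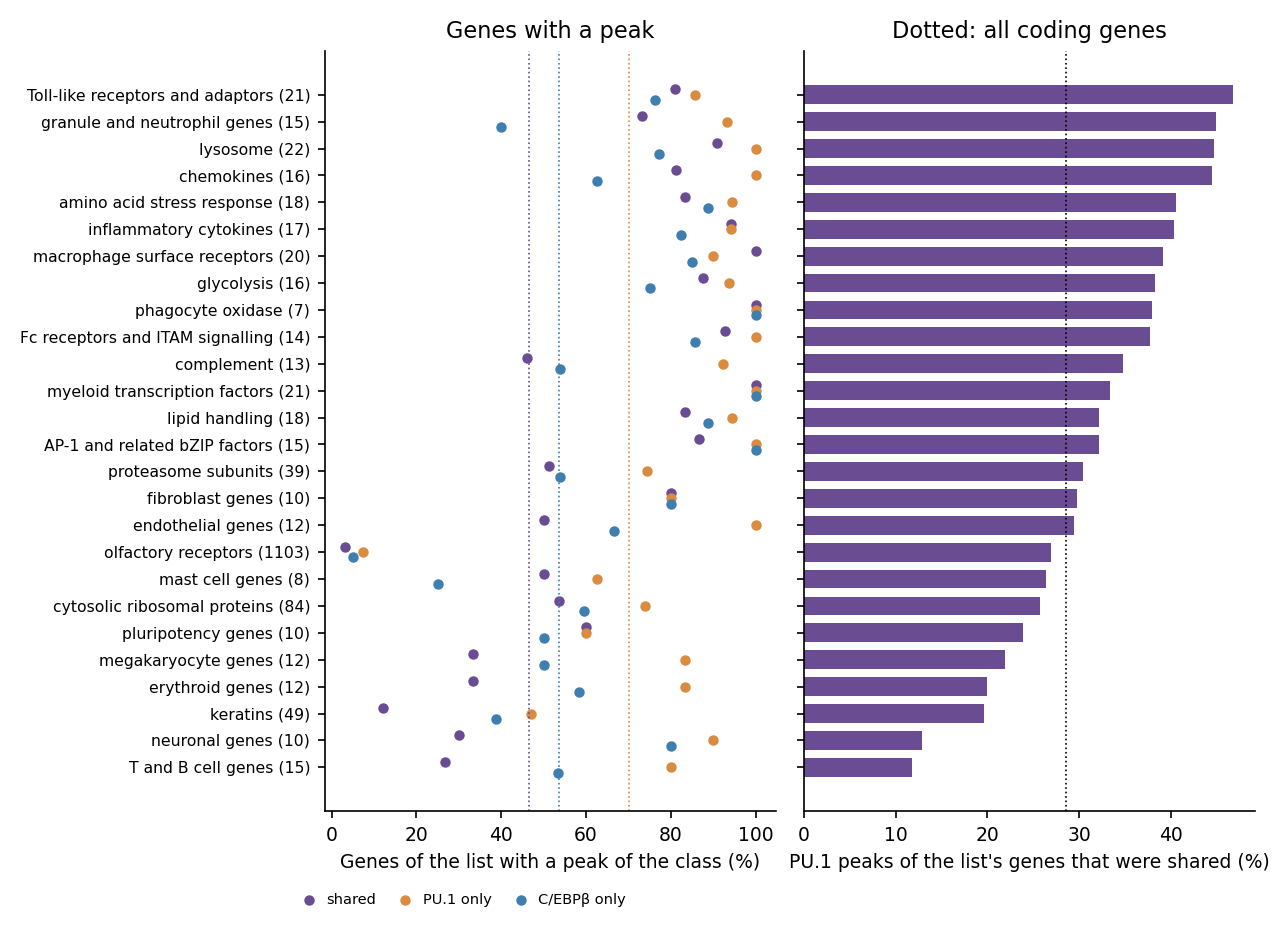
For 26 gene lists (number of genes in brackets), the percentage of genes with a shared, PU.1 only or C/EBPβ only peak (left) and the percentage of their PU.1 peaks that were shared (right); dotted lines mark all 21000 coding genes. The shared part goes from 46.7% at Toll-like receptors and adaptors to 11.8% at T and B cell genes, with 28.5% over all genes.

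Few genes had many sites of one factor and none of the other. Of the 2791 coding genes with PU.1 peaks alone, 8 had 8 or more. Of the 868 with C/EBPβ peaks alone none had 8 or more, and the highest number was 6. Over all 21000 coding genes, 2266 had 10 or more PU.1 peaks and 1209 had 10 or more C/EBPβ peaks. The counts were not adjusted for the longer PU.1 list (82866 against 55471 peaks), so they do not show a difference between the factors. The 8 genes were 4931429L15Rik with 11 PU.1 peaks, Ahdc1, Bcl9l, Dll4 and Heg1 with 9 each, and Chrm3, Pepd and Six2 with 8 each. Dll4, a Notch ligand, and Bcl9l, a cofactor of β-catenin, had them within territories of 31.3 and 44.0 kb, which corresponds to 28.8 and 20.5 PU.1 peaks per 100 kb against 3.04 over all coding genes. Chrm3, a muscarinic receptor gene, had its 8 in 1171 kb.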

How the data were processed

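The 14 deposited lists give the chromosome, start and end of each ChIP-seq peak and no score. The authors used Bowtie to map the reads on mm10 (GRCm38), kept unique ones, removed duplicates, called peaks with MACS against the input of the same stage at a threshold set by eye for each list, refined them with polyPeak and set them to 400 bp around the summit. The processing notes of the submitters also name bedtools. Versions are not given in the sources used here. Both MAC libraries were sequenced once. The authors report the number of aligned reads per experiment in their supplement, but the depth was not used here.

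From the deposited lists, MAC PU.1 and MAC C/EBPβ peaks were split by an overlap of at least 1 bp. Each centre was assigned to the nearest of 26032 coding TSS (RefSeq, GRCm38, 21000 genes). Shared sites at genes were counted by their PU.1 peak. Consensus words were searched on both strands in the 400 bp of a peak and in windows shifted by 2 kb to either side. For pairs of shared peaks the span of both peaks was searched. Shares carry exact Clopper-Pearson 95% intervals and differences Newcombe intervals. The classes were set against each other with two-sided Fisher's exact tests and Benjamini-Hochberg adjustment over 66 tests, of which 60 passed 0.05. These were promoters, 9 consensus sequences and 12 other lists in 3 pairs of classes. A p quoted for an alternative is unadjusted. Peaks are not replicates of a condition, and neighbouring peaks share a region.

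Named genes were Spi1, Cebpb, Itgam, the members of 26 gene lists, the 10 genes with the most peaks of each class, and genes with 8 or more peaks of 1 list and none of the other. Sequences that hold the consensus words were chosen among 165 genes of 10 macrophage lists by distance to the TSS, 1 per gene. Peaks on chromosome 18, among them those of Csf1r, and windows with untranslated exon were passed over. In peaks of 1 list the own word had to lie within 50 bp of the centre. For shared regions, the rule asked for both words within 60 bp of the midpoint. It gave 2 candidates, of which 1 was passed over and the other is not reported here. The 3 regions shown come from a wider window of 150 bp, chosen after the data were seen. The members and lists were chosen with earlier results of these data known. Calculations used Python 3.11.15, NumPy 2.4.6, SciPy 1.17.1, pysam 0.24.0 and Matplotlib 3.10.9, and the functions were tested on simulated data.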

Additional observations from a re-analysis of the deposited data

How the results depend on the processing

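No paired analysis was possible because each list is 1 sample with no replicate. With an overlap of at least 200 bp, 35.6% of C/EBPβ and 23.8% of PU.1 peaks were shared. Among distal peaks these shares were 40.8% and 27.9%, and among promoter peaks 51.0% and 31.3%. With the first 20000 peaks of each list, an alternative added after seeing the data, 20.6% of either list were shared, 6074 genes had peaks of both factors, 2553 C/EBPβ peaks alone and 2994 a shared peak. Both lists were shortened there, so that fewer peaks could overlap. Set against the whole other list, 54.4% of the first 20000 C/EBPβ peaks and 40.9% of the first 20000 PU.1 peaks were shared. The median distance between centres was 60 bp among distal peaks, 93 bp in pairs with both consensus sequences and 51 bp in the first 20000.

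The promoter difference between shared and PU.1 only peaks turned to -0.699 points with an overlap of at least 200 bp and to -0.886 points in the first 20000, where that between shared and C/EBPβ only peaks was -0.736 and that between PU.1 only and C/EBPβ only peaks 0.251 points. The AP-1 difference between shared and C/EBPβ only peaks was -0.407 points with 200 bp of overlap and -0.341 points among distal peaks, and that in overlap with HP PU.1 1.46 points in the first 20000. The cause was not tested. Of the other values tried for the main comparisons, 75 kept their direction and call or stayed within 1.5 times the main count, among them every one run for the PU.1 and C/EBP consensus. Some of these differences still changed in size. With 200 bp of overlap, the promoter difference between shared and C/EBPβ only peaks was 1.72 points. In the first 20000, shared minus C/EBPβ only was -2.47 points for the AP-1 word. It was -1.86 points for overlap with MES C/EBPβ and -1.13 points for overlap with HB C/EBPβ. Of 52 counts of genes with a shared peak, 49 stayed within 1.5 times, and fibroblast genes (4 under both alternatives) and pluripotency genes (3 within 50 kb) did not.

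Without replicates or peak heights, and with the depth not used, differences between the lists in antibody, threshold and depth cannot be told apart from differences between the factors. List lengths cannot be compared.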
